A study of Mus musculus with 10 samples.

Results

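The serotonin receptors examined were the 10 genes Htr3a, Htr3b, Htr1a, Htr1b, Htr1d, Htr2a, Htr2b, Htr4, Htr5b and Htr7, found by symbol among 24421 gene rows of mouse vagal sensory neurons. All 10 symbols were present. The 4 further serotonin receptor genes in the tables, Htr1f, Htr2c, Htr5a and Htr6, were kept apart for comparison. Each library was made from a small pool of neurons picked one by one under the microscope, and the design held 5 groups of 2 pools. In the Trpv1 selection, neurons came from Trpv1-tdTomato mice, in which a cell is red if it has at any time expressed Cre recombinase from the Trpv1 gene. Red neurons were taken from the nodose ganglion (30 cells in each pool, called Trpv1+ nodose) and from the jugular ganglion (30 in each, Trpv1+ jugular), and neurons without the red protein were taken from the nodose ganglion (15 in each, Trpv1- nodose). The 6 pools of this selection were from 2 mice, and which mouse gave which pool was not stated. In the capsaicin selection, neurons came from C57BL/6 mice and were picked after a calcium assay. Nodose neurons that responded to both 10 µM α,β-methylene ATP and 1 µM capsaicin made pools of 14 and 15 cells (capsaicin nodose), and jugular neurons that responded to capsaicin only made pools of 15 and 16 cells (capsaicin jugular). The 2 selections differed in mouse line, sequencing core and depth, so the effect of the selection itself cannot be told apart from these.

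Serotonin is released in the gut by enterochromaffin cells, and in the airways and in blood by mast cells and platelets. It reaches vagal endings and acts on several receptor families. The 5-HT3 receptor is an ion channel of 5 subunits that opens within milliseconds and depolarizes the ending, and its block by antagonists of the setron class is used against vomiting driven by vagal afferents. The A subunit, encoded by Htr3a, can form a channel by itself, whereas the B subunit, encoded by Htr3b, needs the A subunit and changes the conductance and kinetics of the channel. All other serotonin receptors couple to G proteins. The 5-HT1 family lowers cyclic AMP through Gi/o, the 5-HT2 family acts through Gq and phospholipase C, and 5-HT4, 5-HT6 and 5-HT7 raise cyclic AMP through Gs. In mouse the 5-HT5 receptors are encoded by Htr5a and Htr5b.

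Htr3a and Htr3b are related in sequence and lie next to each other, so whether reads of one gene could be assigned to the other was examined first. Both genes are on the minus strand of chromosome 9 (GRCm38), Htr3a (ENSMUSG00000032269.8) from 48899213 to 48911099 and Htr3b (ENSMUSG00000008590.4) from 48935008 to 48964990. The gap between them is 23.9 kb and holds no annotated gene. Over the aligned coding sequence, 61.6% of the bases were identical. The longest run of identical bases was 14, well under the 50-base read length, and it stands in capitals within 60 coding bases of each gene (coding bases 359 to 418 of 1467 in Htr3a and 326 to 385 of 1311 in Htr3b), because it is the place where the transcripts are hardest to tell apart.
Htr3a: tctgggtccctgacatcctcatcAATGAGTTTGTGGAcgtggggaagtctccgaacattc
Htr3b: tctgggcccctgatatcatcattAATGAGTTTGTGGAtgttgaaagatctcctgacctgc
Of the 50-base windows of the annotated transcripts, 0 of 2080 in Htr3a and 7 of 2362 (0.296%) in Htr3b also occurred in transcripts of another gene. Htr3a overlaps an annotated gene on the opposite strand, Gm32335, which had no row in the tables. Whether counting used strand was not stated in the sources used here.

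The 5-HT3 genes were the only listed receptors with high counts, and their counts lay mainly in nodose pools. Levels are given as CPM, normalized with the size factors of DESeq2 over the 10 pools. Htr3a was at 707 and 940 CPM in the Trpv1+ nodose pools, at 428 and 562 CPM in the Trpv1- nodose pools, and at 182 and 342 CPM in the capsaicin nodose pools. In jugular neurons Htr3a was at 80.1 and 24.1 CPM in the Trpv1+ pools and at 39.4 and 0.209 CPM in the capsaicin pools. The last value was 5 counts in capsaicin jugular pool 2, against 1004 counts in pool 1. All 6 nodose pools lay above all 4 jugular pools for Htr3a, with 182 CPM as the lowest nodose value and 80.1 CPM as the highest jugular value. Of 7504 genes that reached 10 CPM in both pools of a group, 1.36% had all nodose pools above all jugular pools. On plain CPM, taken from the library total, the lowest nodose and highest jugular values of Htr3a were 190 and 113.

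Htr3b split the nodose pools by selection, and it split the ganglia only within the Trpv1 selection. It was at 143 and 342 CPM in the Trpv1+ nodose pools and at 80.4 and 126 CPM in the Trpv1- nodose pools, from 20798 to 69766 counts. In the Trpv1+ jugular pools it was at 0.301 and 1.87 CPM, or 70 and 464 counts. No count of Htr3b was found in either capsaicin nodose pool, and the capsaicin jugular pools held 13 counts and 0 counts. Among the nodose pools, then, all 4 pools of the Trpv1 selection held Htr3b and both pools of the capsaicin selection held none. Against a floor of 3 counts in each capsaicin nodose library, the mean of the Trpv1+ nodose pools was 1612-fold higher and that of the Trpv1- nodose pools 686-fold higher. The floor covers the counting of reads only, so these values are no bound on the difference in transcript.

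**Figure D1:**
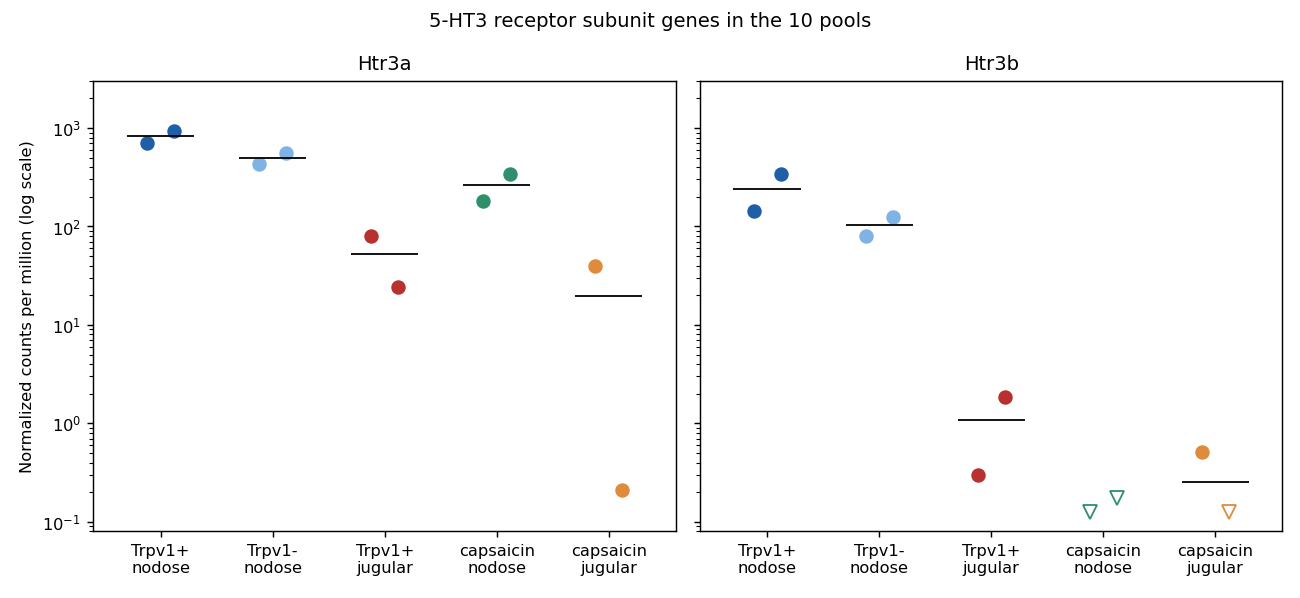
Levels of Htr3a (left) and Htr3b (right) in each pool, in normalized CPM on a log axis, by group. Filled circles are pools, horizontal lines are group means, and open triangles mark pools with no count, drawn at the level of 3 counts. The 6 nodose pools lie above the 4 jugular pools for Htr3a, while Htr3b is high only in the 4 nodose pools of the Trpv1 selection.

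The order of the Htr3a means was Trpv1+ nodose at 823 ± 165 CPM, Trpv1- nodose at 495 ± 94.7, capsaicin nodose at 262 ± 113, Trpv1+ jugular at 52.1 ± 39.6 and capsaicin jugular at 19.8 ± 27.7 (SD, n = 2 each). Neighbours in this order had pools that did not overlap, except for the 2 jugular groups. With 2 pools in each group this is common. For Trpv1+ over Trpv1- nodose neurons it held for 18.4% of all genes tested, and for the other steps the share was not computed. The step from Trpv1+ to Trpv1- nodose was 1.66-fold and depended on the scaling, since the pools of these groups overlapped on plain CPM. For Htr3b the order was Trpv1+ nodose at 242 ± 141 CPM, Trpv1- nodose at 103 ± 32.3, Trpv1+ jugular at 1.09 ± 1.11, capsaicin jugular at 0.255 ± 0.361 and capsaicin nodose with no count (SD, n = 2 each). Htr3b dropped 94.8-fold from the second to the third group, and the 3 lowest groups were not separated from their neighbours. The first 2 groups again overlapped on plain CPM. In pools of picked cells, fewer neurons with a transcript and less transcript per neuron cannot be told apart, and this holds for every level given here.

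Per kilobase of merged exons, Htr3a exceeded Htr3b in every pool. The group means per kilobase were 395 CPM for Htr3a and 101 CPM for Htr3b in Trpv1+ nodose neurons, and 238 and 42.8 CPM in Trpv1- nodose neurons. In Trpv1+ jugular neurons the same means were 25.0 and 0.451 CPM. The share of Htr3b in the summed raw counts of both genes was 16.8% and 26.7% in the Trpv1+ nodose pools and 15.8% and 18.3% in the Trpv1- nodose pools, so the groups overlapped. It was 0.375% and 7.22% in the Trpv1+ jugular pools, below all 4 nodose pools of this selection. In capsaicin nodose pool 1 the share was 0 of 4362 counts (exact binomial 95% upper limit 0.0845%) and in pool 2 it was 0 of 5851 (0.063%). A floor of 3 counts would be 0.0688% and 0.0513% of these totals. In capsaicin jugular pool 1 it was 1.28% (exact binomial 95% interval 0.682% to 2.18%), and in pool 2 the total of 5 counts gave no usable share. The Clopper-Pearson intervals of the Trpv1+ nodose replicates, 16.6% to 17.0% and 26.5% to 26.9%, did not meet. These intervals take each read as an independent draw, so they cannot show whether the replicates differed by more than the sampling of molecules. Such intervals and floors cover the counting of reads only, because amplified reads without molecular identifiers are not independent molecules.

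**Figure D2:**
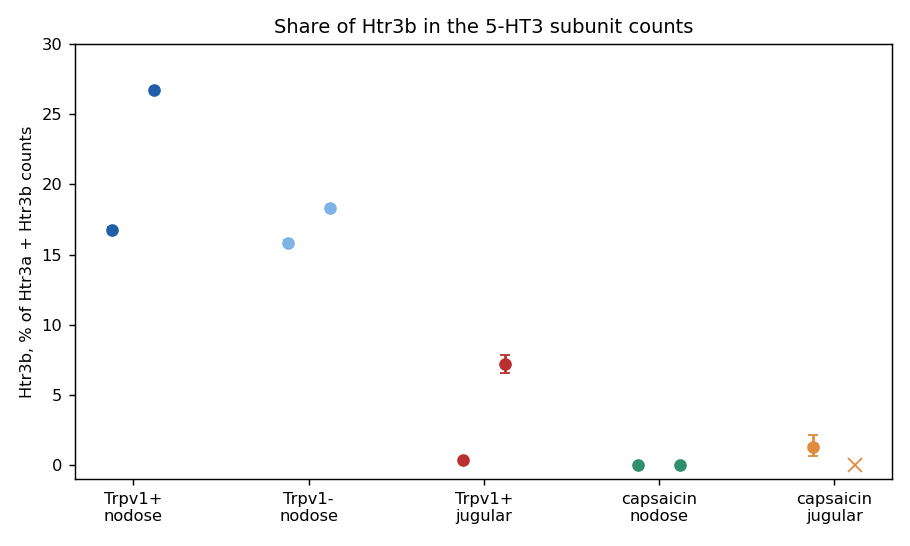
Share of Htr3b in the summed raw counts of Htr3a and Htr3b, in percent, for each pool. Bars are exact binomial 95% intervals, mostly smaller than the points, and the cross is the capsaicin jugular pool with a total of 5 counts. The shares lie between 15.8% and 26.7% in the nodose pools of the Trpv1 selection and at 0 in the capsaicin nodose pools.

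The absence of Htr3b counts in the capsaicin nodose pools was set against genes above a minimum level. No upper limit was set, so genes of far higher level than Htr3b were included. With the minimum set at 80 CPM, just under the lowest Htr3b value in the nodose pools of the Trpv1 selection and thus chosen after the values were seen, 1017 genes were above it in all 4 of those pools. Of these, 4 genes (0.393%) had no count in either capsaicin nodose pool, namely Htr3b, Lypla2, Pithd1 and Tlx2. With these included, 9 genes (0.885%) were under 1 CPM in both capsaicin nodose pools. The capsaicin nodose libraries were shallower than those of the Trpv1 selection, and the 2 pools of this group were less alike than those of the other groups. Genes that reached 10 CPM in one capsaicin nodose pool were under 1 CPM in its replicate in 44.3% of cases, against 14.6% to 27.3% in the remaining 4 groups. The part of this scatter in the Htr3b result was not tested.

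The comparison of nodose with jugular Trpv1+ neurons asked which receptors mark the ganglion of origin. The difference of Htr3a was 3.98 on the log2 scale (SE 0.65, 15.8-fold higher in nodose neurons) and that of Htr3b 7.79 (SE 1.30, 222-fold higher). The replicate spread left both outside the call in edgeR's quasi-likelihood test, with adjusted p values of 0.21 for Htr3a and 0.215 for Htr3b. A call required an adjusted p of at most 0.1, a change of at least 2-fold and 10 CPM in both pools of a group, and 0.318% of the 10990 genes tested met this. No other listed receptor passed the filter on low counts. The pools of the groups did not overlap for either gene, as was the case in this direction for 20.5% of all genes tested. With DESeq2 the adjusted p was 0.0554 for Htr3a and 9.04e-05 for Htr3b, and both genes were called along with 3.39% of the genes it tested. Both were also called by edgeR without the filter on low counts, with adjusted p values of 0.0806 and 0.0912, and when all 6 pools of the Trpv1 selection shared the estimate of the spread, with 0.0814 and 0.0831. Over all alternatives the difference stayed between 3.35 and 5.07 for Htr3a and between 6.997 and 9.63 for Htr3b, and the adjusted p of Htr3a between 0.0554 and 0.702.

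In the capsaicin selection Htr3a was 3.38 higher in nodose neurons on the log2 scale (SE 2.12), with an adjusted p of 0.709 by edgeR. The wide error came with the spread of the jugular pools, 39.4 and 0.209 CPM. Without capsaicin jugular pool 1 the fitted difference was 9.84 and without pool 2 it was 2.40. No gene of the 8181 tested was called by edgeR (0.0%), while 1150 genes (14.1%) had an unadjusted p under 0.05 and DESeq2 called 707 genes (5.81%). Htr3a had an adjusted p of 0.466 in DESeq2. Its pools did not overlap between the ganglia, as for 18.8% of all genes tested in the same direction. Htr3b did not pass the filter on low counts here.

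With the pools of both selections in 1 fit and the selection as a covariate, Htr3a was 3.70 higher in nodose neurons (SE 1.08), with an adjusted p of 0.298 by edgeR, which called 0.577% of 11959 genes. Its nodose pools lay above its jugular pools within each selection, as did those of 4.55% of all genes tested. DESeq2 called Htr3a with an adjusted p of 0.0195 and 7.22% of all genes it tested, edgeR called it without the filter on low counts with 3.4e-08, and without capsaicin jugular pool 2 edgeR gave 0.0836. For Htr3b the fitted difference was 2.51 with an SE of 6.13, so its sign was not determined. The test of whether the ganglion difference itself differed between the selections gave 15.51 for Htr3b (SE 3.75, unadjusted p 0.00297, adjusted p 0.478 by edgeR), and none of 11959 genes was called (0.0%), with 1233 (10.3%) at an unadjusted p under 0.05. DESeq2 called this interaction for Htr3b, with 12.62 and an adjusted p of 0.00579, along with 6.93% of the genes it tested. The size of such a value rests on pools with no count and is no bound. For Htr3a the interaction was 0.62 (SE 2.03, adjusted p 1 by edgeR).

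The Trpv1- nodose pools allowed the ganglion to be separated from the reporter. Trpv1 itself, the capsaicin receptor, was at 202 and 118 CPM in the Trpv1+ nodose pools. It was at 0.0348 and 0.0334 CPM in the Trpv1- nodose pools, so its levels matched the labels of the nodose pools. In the Trpv1+ jugular pools Trpv1 was at 17.8 and 25.8 CPM, lower than in the Trpv1+ nodose pools. Trpv1+ exceeded Trpv1- nodose neurons by 0.77 on the log2 scale for Htr3a (SE 0.25, adjusted p 0.371 by edgeR) and by 1.27 for Htr3b (SE 0.55, adjusted p 0.504), and neither was called, as against 0.0527% of 11386 genes. The pools did not overlap for either gene, as for 18.4% of all genes tested in this direction. DESeq2 gave adjusted p values of 0.948 and 0.824, in a comparison where it called 2.56% of the genes it tested. Set against the same Trpv1- nodose pools, Trpv1+ jugular neurons were lower by 3.22 for Htr3a (fitted value -3.22, SE 0.64, 9.29-fold) and by 6.55 for Htr3b (fitted value -6.55, SE 1.26, 93.6-fold). The adjusted p was 0.288 for both by edgeR, which called 0.226% of 11506 genes, while DESeq2 gave 0.0483 and 7.72e-05 and called both, with 4.24% of the genes it tested. Neither gene's pools overlapped, as for 23.4% of all genes tested in this direction. The comparisons within the Trpv1 selection share pools pairwise, and the fit over both selections reuses the pools of its parts, so their values are not independent. Read side by side, the Trpv1- nodose pools were nearer to the Trpv1+ nodose pools than to the Trpv1+ jugular pools for both subunit genes.

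**Figure D3:**
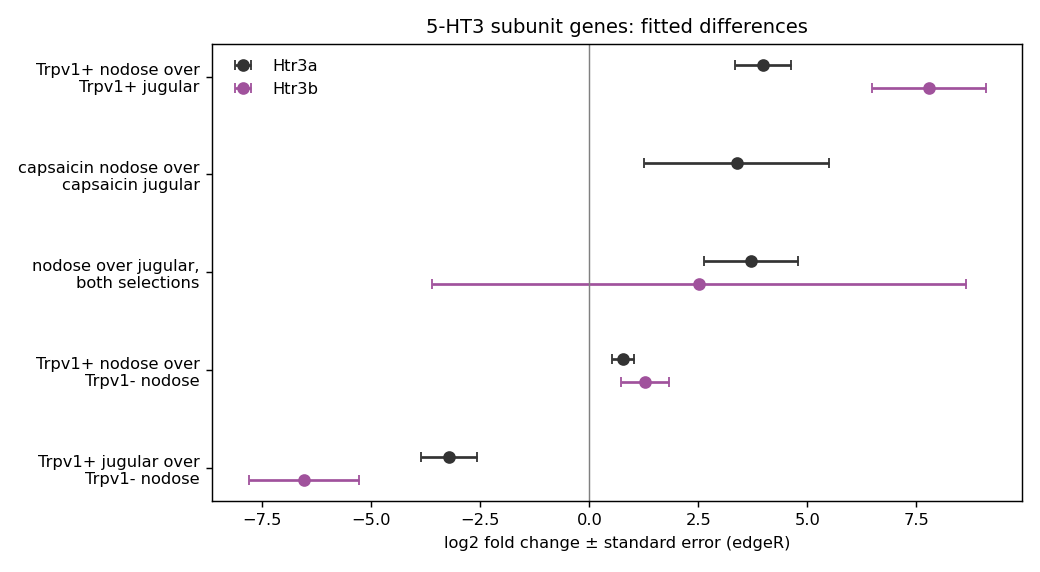
Fitted log2 fold changes of Htr3a and Htr3b with their standard errors from edgeR in the 5 comparisons named on the vertical axis. Htr3b has no value in the capsaicin selection, where it did not pass the filter on low counts, and its error in the fit over both selections spans 0.

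The Gi/o-coupled receptors were absent or scarce. Htr1a, whose product is an inhibitory receptor on many neurons, had 13 and 82 counts in the capsaicin jugular pools, or 0.510 and 3.42 CPM, and at most 1 count in each of the other 8 pools. Its fitted difference between capsaicin nodose and capsaicin jugular neurons was -6.35 on the log2 scale (SE 2.45, unadjusted p 0.0465, adjusted p 0.352 by edgeR, adjusted p 0.126 by DESeq2). The pools did not overlap, as for 23.4% of all genes tested that were lower in nodose neurons. Htr1b and Htr1d, which encode receptors that hold back transmitter release and are targets of the triptans, had no count in any pool. Of the 50-base windows of Htr1b transcripts, 17.1% also occurred in transcripts of other genes, so part of its reads could have been left out of the counts. The Gq-coupled receptor genes Htr2a and Htr2b also had no count in any pool. Htr2b lies within the span of Psmd1, and 9.58% of its windows were shared. Of the 10 genes, 4 thus had no count at all, where 3 counts would have been 0.0179 to 0.0202 plain CPM in the Trpv1 selection and 0.0974 to 0.17 in the capsaicin selection.

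Htr4, a Gs-coupled receptor gene, had 219 counts (9.13 CPM) in capsaicin jugular pool 2 and none in the other 9 pools. Htr7, the other Gs-coupled receptor gene in the list, had 5 counts (0.0202 CPM) in Trpv1+ jugular pool 2 and none elsewhere. Htr5b had 508 counts (21.2 CPM) in capsaicin jugular pool 2 and 241 counts (1.24 CPM) in Trpv1+ nodose pool 1, with 1 and 2 counts in capsaicin nodose pool 2 and capsaicin jugular pool 1. Htr4 and Htr7 did not pass the filter on low counts and so had no value in the edgeR fits with that filter. In DESeq2 the capsaicin comparison gave adjusted p values of 0.059 for Htr4 and 0.0292 for Htr5b, neither of which met the minimum of 10 CPM in both pools of a group. Over both selections DESeq2 gave Htr4 an adjusted p of 2.44e-09, which rests on the same single library and was no call for the same reason. The replicate of the same group stood at 0 for Htr4 and at 0.0785 CPM for Htr5b, so each of these levels rested on 1 library.

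Capsaicin jugular pool 2 was the 1 pool in which Htr3a did not lead the serotonin receptors. Per kilobase, Htr5b made up 80.1% of its summed serotonin receptor CPM, Htr4 13.6%, Htr1a 5.58% and Htr3a 0.732%. In the other 9 pools Htr3a made up between 76.0% and 100% of that sum, and its replicate, capsaicin jugular pool 1, stood at 98.1%. The summed level of the 14 receptor genes in capsaicin jugular pool 2 was 13.7 CPM per kilobase, close to the 12.3 in Trpv1+ jugular pool 2 and the 19.3 in its replicate. In this pool the jugular marker Prdm12 was at 32.6 CPM and the nodose marker P2rx2 at 0.0834 CPM. The 5 fibroblast markers summed to 41.6 CPM in this pool, from Col1a2 (24.6 CPM) and Dcn (17.0 CPM) only. They summed to 239 CPM in its replicate and to at most 38.4 CPM elsewhere, and Dcn alone gave both of these values. The part of fibroblast markers in these receptor levels was not tested.

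**Figure D4:**
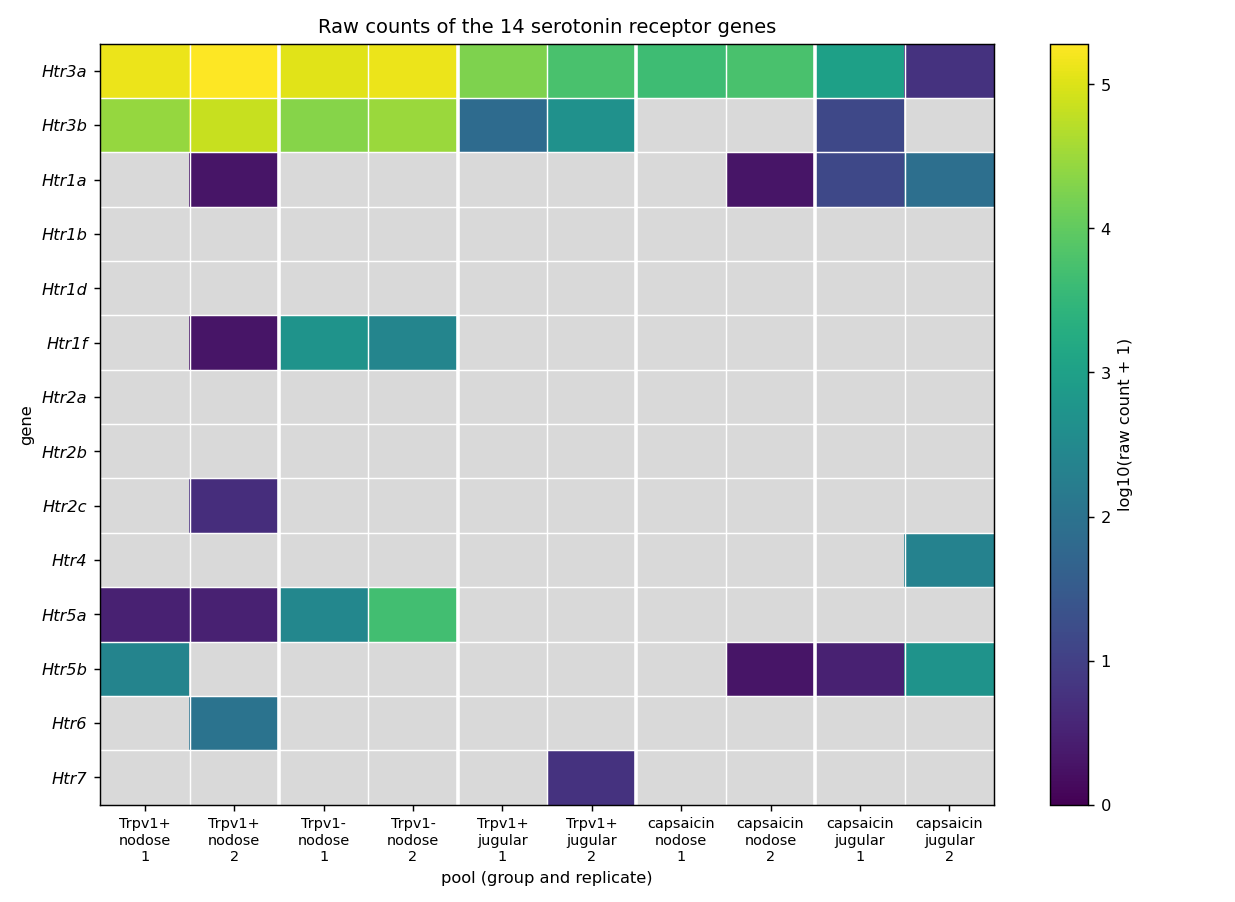
Raw counts of the 14 serotonin receptor genes in each pool, coloured by log10(count + 1), with pools that had no count in grey. Htr3a is found in every pool, Htr3b in 7 pools, and the remaining genes appear in a few pools each, with Htr1a, Htr4 and Htr5b together in capsaicin jugular pool 2.

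Of the 4 other receptors in the tables, 2 were seen in the Trpv1- nodose group. Htr1f had 518 and 249 counts there (a mean of 1.52 CPM), and Htr5a had 277 and 4813 counts (1.07 and 20.1 CPM). Outside that group Htr1f had at most 1 count and Htr5a at most 2 counts in a pool. In Trpv1+ against Trpv1- nodose neurons the fitted values were -8.95 for Htr1f (SE 2.60, adjusted p 0.366 by edgeR) and -9.90 for Htr5a (SE 3.21, adjusted p 0.371), so neither was called. DESeq2 gave adjusted p values of 0.000798 and 2.2e-05, but neither gene reached 10 CPM in both pools. Htr6 had 100 counts in Trpv1+ nodose pool 2 alone and Htr2c had 4 counts there. Markers of mechanosensory neurons moved with Htr1f and Htr5a among the nodose groups of the Trpv1 selection, since the summed level of Piezo2 and P2ry1 was 80.1 and 90.0 CPM in Trpv1- pools and 0.0463 and 0.78 CPM in Trpv1+ pools. They did not do so in jugular pools, where the same sum was between 57.0 and 101 CPM and neither receptor had a count. P2ry1 made up most of the sum in Trpv1- nodose pools (69.3 and 81.3 CPM). Piezo2 made up most of it in Trpv1+ jugular pools (44.1 and 79.9 CPM) and all of it in capsaicin jugular pools, where P2ry1 had no count.

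The 2 nearest protein-coding genes on each side of the Htr3 pair did not follow it. Nnmt had no count in any pool and Zbtb16 had at most 71 counts. On the Htr3b side, Usp28 had 936 counts in Trpv1+ nodose pool 1 and 2672 in Trpv1- nodose pool 1, and at most 3 elsewhere. Zw10 had its 2 highest values in capsaicin jugular pool 1 (63.5 CPM) and Trpv1+ jugular pool 1 (21.7 CPM). Capsaicin nodose pool 1 (14.6 CPM) and Trpv1+ nodose pool 2 (9.33 CPM) came next. Both were above Trpv1+ jugular pool 2 (5.63 CPM) and capsaicin jugular pool 2 (0.542 CPM).

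The region upstream of Htr3b is shown because this gene went from at least 20798 counts in each nodose pool of the Trpv1 selection to none in the capsaicin nodose pools. The RefSeq window on GRCm38.p6, chr9:48964991-48965240 on the minus strand, is given 5′ to 3′ with every ATTA on either strand (read as ATTA or TAAT, overlaps included) in capitals, the core letters read by many homeodomain proteins.
Htr3b upstream: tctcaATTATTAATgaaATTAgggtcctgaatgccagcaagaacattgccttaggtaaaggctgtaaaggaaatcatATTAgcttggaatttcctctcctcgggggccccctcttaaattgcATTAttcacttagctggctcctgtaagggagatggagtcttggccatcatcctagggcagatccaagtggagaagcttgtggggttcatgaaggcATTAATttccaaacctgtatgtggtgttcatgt
It held 8 such matches. At least 1 match was present in 54.9% of 32851 windows of the same length, the median was 1, and 1.12% held 8 or more. Searched on both strands, TATAAA, found in 12.4% of the windows, was not in this one. Nor was CCAAT, which 33.8% of them hold, nor GGGCGG, which 32.7% hold. The cyclic AMP response element TGACGTCA, held by 1.55%, was not in it either, and neither was the longer homeodomain sequence TAATTA, held by 4.84%. The matches are letters only and say nothing of binding.

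Genes with the most similar pattern to each subunit over the 10 pools were taken from 7504 genes by Pearson's r of log2(CPM + 1). For Htr3a they were Enah (r = 0.940), Lgals1 (0.922), Gm20594 (0.922), Crip1 (0.919) and Cartpt (0.917). Enah regulates actin assembly, Lgals1 encodes galectin-1, and Cartpt encodes the precursor of the CART peptides. For Htr3b they were Nr4a1 (r = 0.980), Hoxb6 (0.979), Fggy (0.973), Lppr2 (0.970) and Kiss1r (0.970). Nr4a1 is an immediate-early nuclear receptor, Hoxb6 a homeobox factor and Kiss1r the kisspeptin receptor. Like Htr3b, Nr4a1, Fggy, Lppr2 and Kiss1r had no count in either capsaicin nodose pool, and Hoxb6 was at 0.834 and 0.176 CPM there. The partner subunit ranked 240th for Htr3a and 463rd for Htr3b, at r = 0.672. These r values describe 10 pools of 2 depths and 2 mouse lines, which differ together.

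Enzymes and transporters that make, store, take up and break down serotonin were examined as a list of 13 genes. Maob, which encodes monoamine oxidase B, was called in the fit over both selections, 10.24 higher in nodose neurons on the log2 scale (SE 1.65, adjusted p 0.0262 by edgeR). It was at 19.3 and 10.4 CPM in Trpv1+ nodose, 57.5 and 6.96 in Trpv1- nodose and 174 and 204 in capsaicin nodose pools. All 4 jugular pools were between 0.00808 and 0.157 CPM. Maob was the 1 gene called of 7 tested in that fit, beside 0.577% of all genes, and the median difference of the list was 1.37 and that of all genes -0.18. Within the Trpv1 selection no gene of the list was called by edgeR between the ganglia, with 6 tested and 2 at an unadjusted p under 0.05, beside 11.9% of all genes. DESeq2 called Ddc and Maob there, beside 3.39% of all genes. Within the capsaicin selection 4 were tested and none was called by edgeR, 2 were at an unadjusted p under 0.05, beside 14.1% of all genes, and DESeq2 called Maob, beside 5.81%. Set against Trpv1- nodose neurons, 6 genes were tested in each comparison and edgeR called none. In Trpv1+ nodose neurons none was at an unadjusted p under 0.05 or called by DESeq2, and in Trpv1+ jugular neurons 2 were lower at an unadjusted p under 0.05, beside 7.35% of all genes, and DESeq2 called Ddc and Slc29a4, both lower, beside 2.59%.

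The next 4 genes of that list are named after their values were seen. Ddc, the decarboxylase that completes serotonin synthesis and also makes dopamine, was at 11.6 and 19.0 CPM in Trpv1+ nodose and 64.8 and 21.3 CPM in Trpv1- nodose pools, with at most 2 counts in any other pool. Tph1, which encodes the rate-limiting hydroxylase outside the brain, had 1717 counts in capsaicin jugular pool 1 and at most 20 in any other pool. Slc18a2, the vesicular monoamine transporter, was at 326 and 615 CPM in capsaicin nodose pools and at most 44.0 CPM in all others. The uptake carrier gene Slc6a4 had 28 counts in Trpv1- nodose pool 2 and none elsewhere. Mast cell markers, 6 genes, summed to at most 1.17 CPM in any pool and to 0 in the capsaicin pools.

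**Figure D5:**
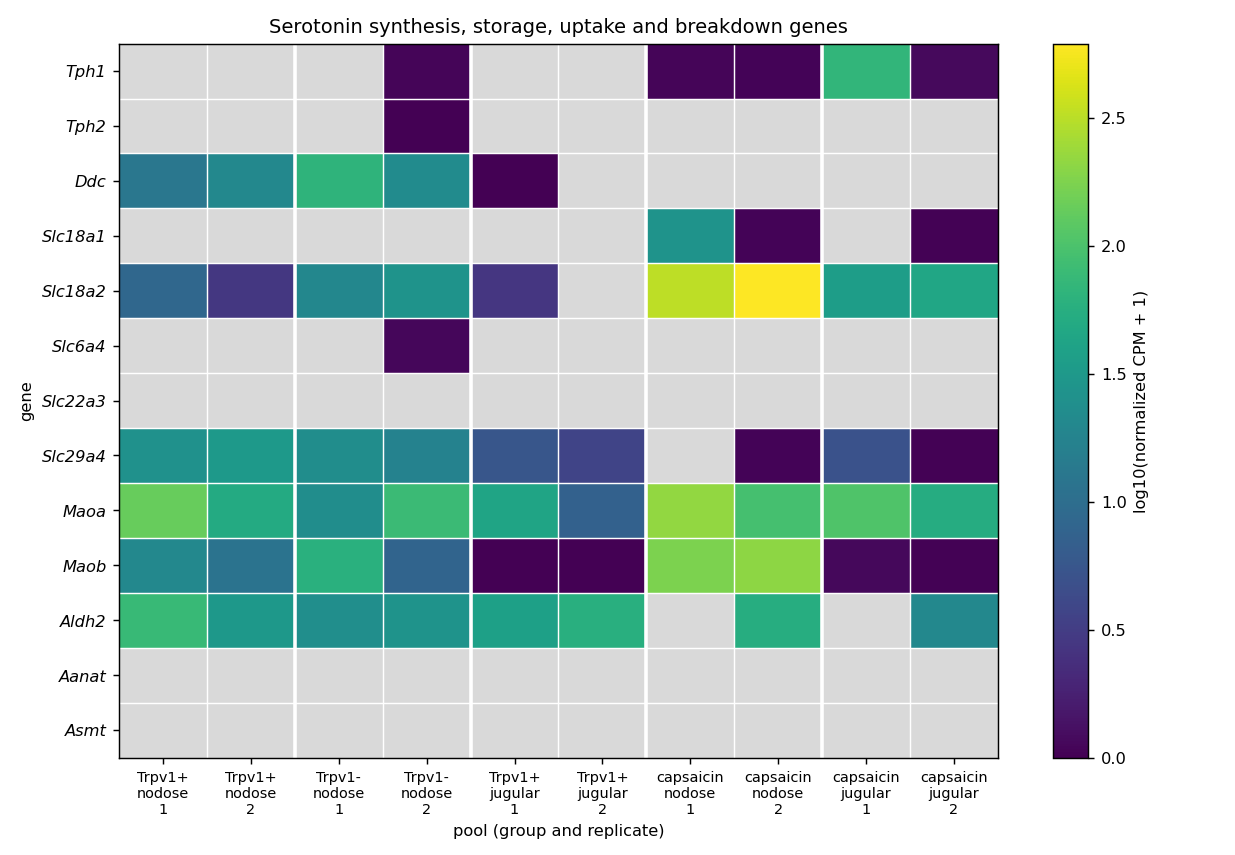
Levels of 13 genes of serotonin synthesis, storage, uptake and breakdown in each pool, coloured by log10(normalized CPM + 1), with pools that had no count in grey. Maob is found in nodose pools and at trace levels in jugular pools, and Ddc in the 4 nodose pools of the Trpv1 selection.

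The list of receptor chaperones and partners held Ric3, which helps assemble 5-HT3 receptors, Tmem35, and S100a10, which binds G protein-coupled serotonin receptors. All 3 were tested and none was called in any comparison by edgeR or DESeq2. At an unadjusted p under 0.05 none of the 3 stood out either. Of 24 genes for G proteins and effectors, 18 were tested between Trpv1+ nodose and Trpv1+ jugular neurons, and edgeR called 1 higher and 1 lower in nodose neurons, beside 0.318% of all genes. With any of the 4 pools left out no gene was called in this comparison, these 2 included. Gnas, which encodes the Gs alpha subunit used by 5-HT4 and 5-HT7 receptors, was at 5262 ± 277 CPM in Trpv1+ nodose and 1702 ± 99.9 CPM in Trpv1+ jugular pools (SD, n = 2 each), a difference of 1.62 (SE 0.10, adjusted p 0.0196 by edgeR). DESeq2 did not call this difference, with an adjusted p of 0.625. Gna14, a member of the Gq family, was at 136 ± 22.3 CPM in Trpv1+ jugular (SD, n = 2), at 293 and 343 CPM in the capsaicin jugular pools and at most 0.234 CPM in each nodose pool. Its difference in the Trpv1 selection was -11.80 (SE 1.05, adjusted p 0.0453 by edgeR). Over both selections Gnas was 1.42 higher (adjusted p 0.00396) and Gna14 was at -11.34 (adjusted p 0.000262) in edgeR. In that fit 18 genes of the list were tested and edgeR called 1 higher and 1 lower, beside 0.577% of all genes. Over the same pools DESeq2 called Gnas higher (adjusted p 0.00337) and Gna14 and Adcy9 lower, beside 7.22% of the genes it tested. Gna14 was also called by edgeR in Trpv1+ jugular over Trpv1- nodose neurons, at 12.23 (adjusted p 0.0306). It was the 1 gene called of 19 tested, beside 0.226% of all genes. At an unadjusted p under 0.05 in edgeR, 2 were higher and 4 lower, beside 5.6% and 7.35% of all genes. DESeq2 called Gnaz and Gna14 higher in this comparison, beside 1.65% of all genes. Between capsaicin nodose and capsaicin jugular neurons 14 genes of the list were tested and edgeR called none, with 2 lower in nodose neurons at an unadjusted p under 0.05, beside 11.5% of all genes. DESeq2 called Gna14 and Adcy9 lower there, beside 4.97%. The median over the tested genes of this list was 0.52 between the Trpv1+ groups, beside 0.03 for all genes.

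The pools matched their labelled ganglion. P2rx2, a subunit of ATP-gated channels that marks nodose neurons, was between 61.5 and 548 CPM in nodose pools and between 0.0525 and 0.235 CPM in jugular pools. Prdm12, a regulator of neural crest-derived nociceptors, was between 22.3 and 148 CPM in jugular pools and at most 0.19 CPM in nodose pools. Glial markers were present in all pools, summing to between 2974 and 4058 CPM in pools from Trpv1-tdTomato mice and to between 1582 and 2201 CPM in those from C57BL/6 mice, and their part in the receptor levels was not tested. The 6 red blood cell markers had no count. Library totals ran from 148452506 to 167704327 counts in the Trpv1 selection and from 17666710 to 30810863 in the capsaicin selection.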

How the data were processed

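Per the labels and the methods of the study, cDNA was made directly from picked cells with the SMARTer Ultra Low Input kit (15 amplification cycles) and sequenced as paired 50-base reads. The authors aligned reads to mm10 with TopHat2 2.0.9 and Bowtie2 2.1.0.0, allowing up to 2 mismatches, and deposited raw counts per gene symbol from HTSeq. Base calling used CASAVA 1.8.2. The annotation and strand setting are not given in the sources used here. Among the rows, 27 had symbols that had been turned into dates, and these were left in. Counts were tested with edgeR 4.0.16 (TMM, filterByExpr, quasi-likelihood test, Benjamini-Hochberg adjustment over all genes tested), with DESeq2 1.42.0 as an alternative. CPM came from DESeq2 size factors over all 10 pools. Scripts were tested on simulated data. Gene models were GENCODE on GRCm38, and the upstream sequence was RefSeq; of the 10 genes, 7 had an entry there. Named genes were the 10 receptors whatever their value, every listed gene called by edgeR in a comparison, the locus neighbours and the 5 most similar genes for each subunit. The receptors and lists were chosen with earlier results of these data known. Further genes were named after their values were seen, where the text says so or DESeq2 alone called them. The 6 pools of the Trpv1 selection came from 2 mice and so share animals, and the animals behind each capsaicin pool were not stated, so p-values measure only the spread between these pools, which may be technical. Same-numbered pools did not deviate together. Some marker genes are not reported here.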

Additional observations from a re-analysis of the deposited data

How the results depend on the processing

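The number of genes called depended strongly on the tool. For Trpv1+ nodose over Trpv1+ jugular neurons it was 35 by edgeR, 510 by DESeq2, 59 without the filter on low counts, 71 with the 6 pools of the Trpv1 selection in one fit and 0 (lowest and highest) with any pool left out. For the capsaicin selection it was 0, with 707 by DESeq2, 122 without the filter, 110 with 10 pools in one fit and 0 to 29 with a pool left out. For both selections it was 69, with 1125 by DESeq2, 222 without the filter and 38 to 89 with a pool left out. For Trpv1+ over Trpv1- nodose neurons it was 6, with 392, 10 without the filter, 15 with 6 pools and 0 with any pool left out. For Trpv1+ jugular over Trpv1- nodose neurons it was 26, with 637, 47 without the filter and 1 to 2 with a pool left out. For the interaction it was 0, with 1080, 95 without the filter and 0 to 195 with a pool left out, the highest without capsaicin nodose pool 1. Where a group was left with 1 pool, that pool was taken to vary like the others. With the replicate number as a block the counts were 13, 20, 41, 1, 2 and 0 in the same order. The numbers did not pair the pools (correlation of deviations 0.00221, -0.0137, -0.0126 and 0.0177 in the comparisons of 2 groups), and no receptor was called with the block.

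Of 185 refitted receptor values, 163 kept both direction and side of the threshold, 13 passed it and 9 changed sign. Over both selections Htr3b ran from -2.33 to 7.75 with a pool left out, turning negative without either Trpv1+ jugular pool, and Htr5b from -7.17 to 7.39 and to 1.15 in DESeq2, against -0.44. The interaction of Htr3a was -1.64 with the block and from -6.19 to 1.804 with a pool left out. The cause was not tested.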

Other observations

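The 3 genes that shared with Htr3b a level of at least 80 CPM in all 4 nodose pools of the Trpv1 selection and no count in either capsaicin nodose pool differed from it in jugular neurons. Lypla2, which encodes an acyl-protein thioesterase, had 37075 and 44443 counts in the Trpv1+ jugular pools, where Htr3b had 70 and 464. Pithd1 had 36477 and 36968 counts there, and Tlx2, a homeobox gene, had 57990 and 44846. In the capsaicin jugular pools Lypla2 had 0 and 736 counts, Pithd1 102 and 335, and Tlx2 120 and 0. These genes were chosen after their values were seen, and no test was made of them.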
